A study of Mus musculus with 6 samples.

Results

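Themis, Cd5, Cd6 and Sla encode T-cell proteins that set how strongly the T-cell receptor (TCR) signals, and all 4 were found by gene symbol among the 854 genes of the deposited table. RNA came from OT-I cells, mouse CD8 T cells with a transgenic TCR for an ovalbumin peptide, which were enriched as naive cells from spleen and lymph nodes. One group was wild-type (WT) and the other carried a conditional knockout of Themis (cKO), and both share the OT-I receptor. Each genotype was held in IL-2 (1 µg/ml) over 3 days and is represented by 3 libraries. The labels used here name neither the Cre driver nor the deleted exon, nor the age or number of the mice. Nor do they tie libraries of 1 genotype to different mice or wells, and a p-value here therefore reflects only how these libraries vary, which may be technical.

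When a TCR meets its ligand, the kinase Lck phosphorylates the CD3 and zeta chains, Zap70 docks there, and the adaptor Lat assembles the signalling complexes that raise calcium and activate the MAP kinase and NF-kB pathways. Themis is a T-lineage protein that binds the adaptor Grb2 and the phosphatase Shp1, and it is best known for its requirement when thymocytes are selected. Cd5 and Cd6 are surface receptors with scavenger receptor cysteine-rich domains, and the surface level of Cd5 is widely used as a measure of the TCR signal a T cell has received. Sla, also called SLAP, is an adaptor with an SH3 and an SH2 domain that brings the ubiquitin ligase Cbl to the TCR and so promotes its removal from the surface.

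The table is not the whole transcriptome. No gene in it had a log2 ratio of cKO to WT counts between -0.94 and 1.06, so its genes differ at least about 2-fold. All 794 genes with enough counts to test passed an adjusted p of 0.05 (100% called; edgeR quasi-likelihood test, Benjamini-Hochberg), and 602 of them (75.8%) were lower in cKO. Passing this test is therefore no independent evidence for a gene of the table. Library totals over all genes were not used here, and fold changes take the genotypes at equal sequencing depth. Scalings that centre the table on itself (edgeR's TMM, DESeq2 size factors in edgeR, and DESeq2 itself) moved the median log2 fold change up by 1.29 to 1.30, and with each of the 4 genes it is said below what they did to it. In a bulk sample, fewer cells of a type and less RNA per cell cannot be told apart.

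Promoter sequence is shown for the knocked-out gene and for Cd5, a receptor gene that was lower in the knockout, so that the stretch upstream of their transcripts can be read beside their counts. In the RefSeq promoter windows of GRCm38.p6, which run from 250 bases before to 50 bases after a start, 2 of the 4 genes matched. For Themis the window of the more upstream of its 2 starts was used. The lines give the bases upstream of every annotated start, 5′ to 3′ on the gene's strand, 250 bases at chr10:28668110-28668359 (plus strand) for Themis and 198 bases at chr19:10739027-10739224 (minus strand) for Cd5. Capitals mark a match to a searched motif.
Themis: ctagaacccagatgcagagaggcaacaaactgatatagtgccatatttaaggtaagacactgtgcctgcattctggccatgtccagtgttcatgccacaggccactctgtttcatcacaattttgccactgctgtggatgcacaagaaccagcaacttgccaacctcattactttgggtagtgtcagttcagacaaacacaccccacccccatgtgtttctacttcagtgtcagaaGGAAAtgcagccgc
Cd5: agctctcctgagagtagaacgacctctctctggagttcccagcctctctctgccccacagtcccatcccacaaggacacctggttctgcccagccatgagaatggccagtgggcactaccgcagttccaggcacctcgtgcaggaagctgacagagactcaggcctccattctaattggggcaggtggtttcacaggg

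Both strands of the windows were searched for TGANTCA (AP-1), the IRF motif (GAAA, any 2 bases, GAAA), GCGTGGGCG (EGR), GGAAA (the NFAT core), TGTGGT (RUNX), CCGGAA (ETS) and TATAAA (the TATA box). The only match in the Themis window was the GGAAA in capitals. The only match in the Cd5 window was the same motif on the opposite strand, downstream of the stretch printed. GGAAA is common, at 61.3% of 32851 windows of this length. The other motifs, in the order given, were in 7.81%, 3.44%, 0.612%, 16.8%, 14.9% and 13.6% of windows. No match says only that these letters are not in this window.

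Themis, the targeted gene, was lower in each cKO library (Gene ID 210757, chromosome 10, 28668360 to 28883820 of GRCm38.p6, plus strand). It had 5521, 5784 and 4964 scaled counts in WT replicates 1 to 3 and 977, 1227 and 1215 in cKO replicates 1 to 3. The groups did not overlap, and the lowest WT library was still far above the highest cKO library. The cKO libraries kept 18.0%, 22.6% and 22.4% of the WT mean, so Themis RNA was reduced but present in all of them. The means were 5423 ± 418 in WT and 1140 ± 141 in cKO (SD, n = 3 each), 4.76-fold lower. The log2 fold change was -2.25 with a standard error of 0.11 (95% interval -2.499 to -2.001; edgeR quasi-likelihood test, adjusted p = 5.16e-08). Under the table-centred scalings it was -0.96 to -0.95 and still called (adjusted p of 2.99e-11 to 4.71e-05). These counts are totals over the gene, and single exons were not analysed here.

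**Figure D1:**
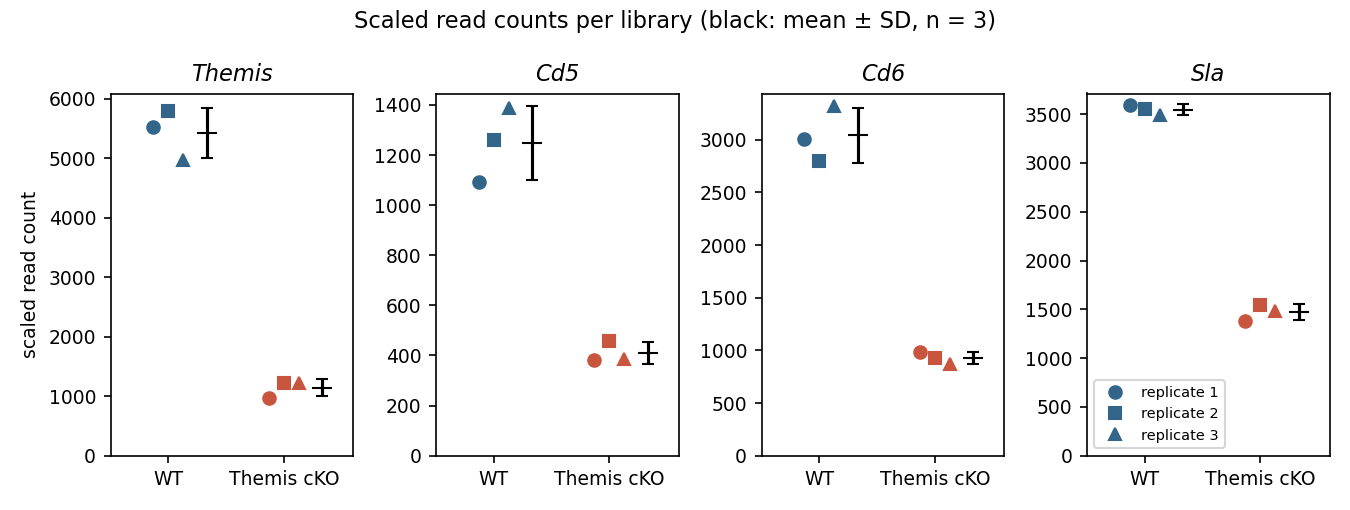
Scaled read counts (linear axes from 0) of the 4 genes in the 3 WT and 3 Themis cKO libraries, one symbol per replicate number, with the mean and SD of each group in black. In each panel every cKO library lies below every WT library, with Themis at 977 to 1227 against 4964 to 5784.

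The receptor genes Cd5 and Cd6 were both about 3-fold lower in cKO. They are neighbours on chromosome 19, both on the minus strand, with 50.3 kb between them, and the 1 RefSeq gene in that interval is a long noncoding RNA that is not in the table.

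Cd5 (Gene ID 12507, 10718107 to 10739026) had 1093, 1259.6 and 1387 scaled counts in WT replicates 1 to 3 and 382, 459 and 385 in cKO replicates 1 to 3. The groups did not overlap, though the WT libraries were spread more widely around their mean (coefficient of variation 11.8%) than those of the other 3 genes. The means were 1247 ± 147 and 409 ± 44.1 (SD, n = 3 each), 3.05-fold lower, with a log2 fold change of -1.61 ± 0.13 (standard error; 95% interval -1.91 to -1.31; edgeR, adjusted p = 2.13e-06). Under the table-centred scalings the log2 fold change was -0.32 to -0.31 and it was no longer called (adjusted p of 0.0604 to 0.0713, against at most 8.29e-05 under the other alternatives).

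Cd6 (Gene ID 12511, 10789339 to 10830062) is the receptor that binds Alcam on antigen-presenting cells. It had 3008, 2801 and 3318 scaled counts in WT replicates 1 to 3 and 985, 926 and 872 in cKO replicates 1 to 3. Every cKO library was below every WT library, and the cKO libraries lay at 28.7% to 32.4% of the WT mean. The means were 3042 ± 260 and 928 ± 56.5 (SD, n = 3 each), 3.28-fold lower, with a log2 fold change of -1.71 ± 0.10 (standard error; 95% interval -1.94 to -1.49; edgeR, adjusted p = 1.51e-07). Under the table-centred scalings it stayed lower and called, at -0.42 (adjusted p of 0.000183 to 0.00366). With TMM, DESeq2 size factors in edgeR and DESeq2 itself, 27%, 26.8% and 25.2% of all genes tested were called lower, among them Themis and Cd6.

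Sla (Gene ID 20491, chromosome 15, 66780819 to 66831829, minus strand) had the smallest fold change of the 4 genes. It stood at 3598, 3553 and 3491 scaled counts in WT replicates 1 to 3 and at 1379.7, 1549 and 1485 in cKO replicates 1 to 3. The WT libraries were close together (coefficient of variation 1.51%) and none came near the cKO libraries. The means were 3547 ± 53.7 and 1471 ± 85.3 (SD, n = 3 each), 2.41-fold lower, with a log2 fold change of -1.27 ± 0.08 (standard error; 95% interval -1.45 to -1.08; edgeR, adjusted p = 3.37e-07). Among the fits run here, the direction of Sla rests on the equal depth of the genotypes. The table-centred scalings put it at 0.021 to 0.028 with no call (adjusted p of 0.794 to 0.845). The authors' own deposited log2 value for Sla was below 0, at -1.19 (their q-value 2.37e-11). All 4 genes were called lower in the main analysis, against 75.8% of all tested genes, and all 4 were without overlap between the groups, against 75.7%.

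**Figure D2:**
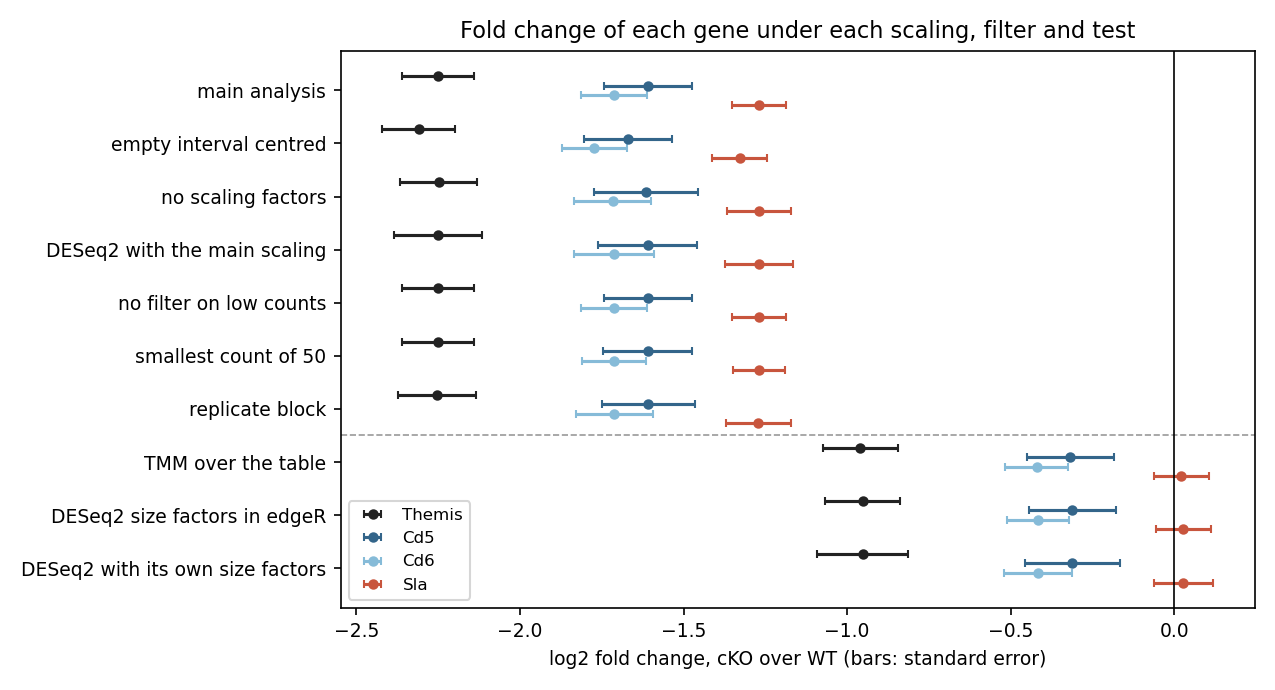
Log2 fold change of cKO over WT (horizontal axis, bars are standard errors) of each gene under the main analysis and its alternatives on all 6 libraries; the dashed line separates the 3 scalings that centre the table on itself. Above the line the genes lie between -2.31 and -1.27, and below it all shift upward together, Sla to just above 0.

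The authors' deposited table gives log2 values of -2.25 for Themis, -1.77 for Cd5, -1.71 for Cd6 and -1.19 for Sla, with q-values of 1.07e-104, 1.31e-34, 1.69e-44 and 2.37e-11. By those values Cd5 was lower than Cd6, and by the edgeR fit Cd6 was lower than Cd5, so the data do not order the 2 receptors. By the authors' deposited values, 55% of the 854 genes were lower with a q-value under 0.05, a threshold set here. The deposited p-value of Themis was the smallest of the 854, that of Cd6 had rank 4, that of Cd5 rank 5 and that of Sla rank 46. The edgeR p-values gave ranks of 62, 104, 186 and 122 among 794 for Themis, Cd6, Cd5 and Sla. Of the 602 lower genes, 24.8% had a lower log2 fold change than Themis, 45.2% than Cd6, 51.2% than Cd5 and 70.9% than Sla, and the median of the lower genes was -1.64.

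Ratios between the genes within a library do not depend on how the genotypes are scaled, so they compare the changes of the 4 genes with one another. Each ratio was compared by an exact two-sided permutation test of its log2 value, which cannot go below p = 0.10 with 3 libraries against 3, and p-values were adjusted over the 6 pairs. None of the 6 could therefore pass 0.05.

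The ratio of Themis to Sla was lower in every cKO library than in any WT library. WT libraries held 1.53, 1.63 and 1.42 Themis counts per Sla count, and cKO libraries 0.708, 0.792 and 0.819. The 2 ranges are apart; since the transcripts differ in length, the change of the ratio can be read but not which gene stood higher. The log2 ratio went from 0.61 ± 0.10 to -0.37 ± 0.11 (SD, n = 3 each), a difference of -0.98 (exact permutation p = 0.10, adjusted 0.12). Against Cd5 the log2 ratio of Themis differed by -0.65 and against Cd6 by -0.54, again without overlap between the groups (exact permutation p = 0.10, adjusted 0.12 for each). In the Themis to Cd6 ratio the gap between the groups was small, with 1.496 in the lowest WT library and 1.39 in the highest cKO library.

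The ratios of both receptor genes to Sla were also lower in each cKO library. The log2 ratio of Cd6 to Sla differed by -0.44 and that of Cd5 to Sla by -0.33, without overlap (exact permutation p = 0.10, adjusted 0.12 for each). Cd5 and Cd6 could not be separated from each other. There were 0.364, 0.450 and 0.418 Cd5 counts per Cd6 count in WT replicates 1 to 3 and 0.388, 0.497 and 0.442 in cKO replicates 1 to 3. These ranges overlap, and the difference of 0.11 on the log2 scale was smaller than the SD of either group (0.16 and 0.18; exact permutation p = 0.50, adjusted 0.50). A p of this size does not show that the 2 genes changed alike. A ratio shows unequal change only and does not say that either gene was constant.

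**Figure D3:**
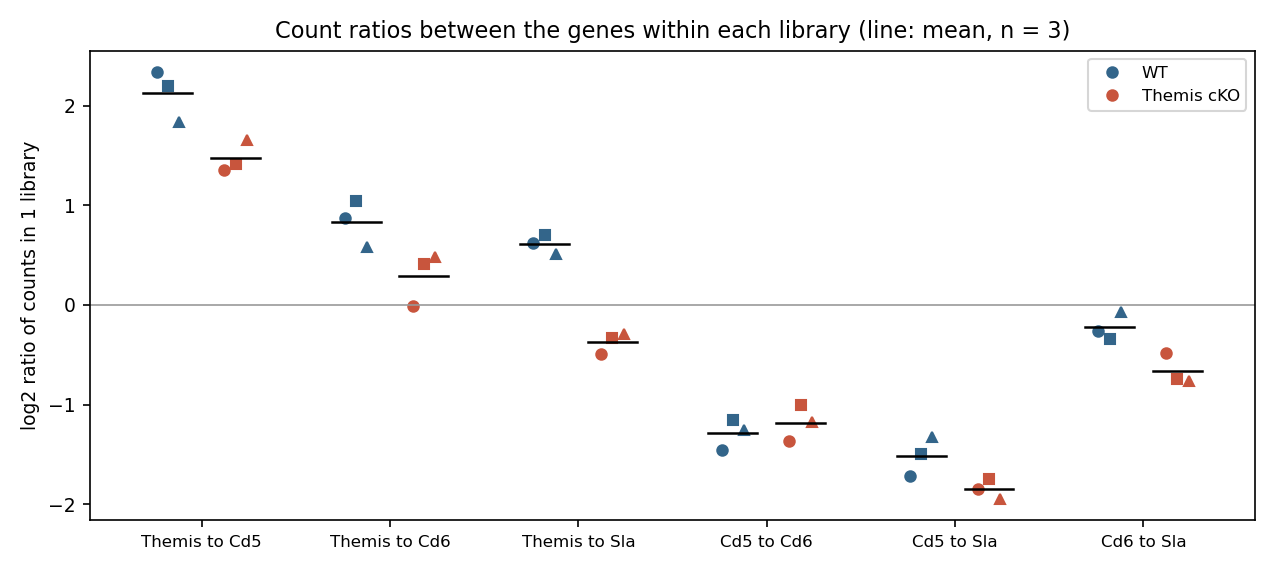
Log2 ratio of the counts of 2 genes within each library (vertical axis) for the 6 pairs, with WT and Themis cKO side by side, one symbol per replicate number and a line at each mean. The ratios of Themis to Sla run from 0.51 to 0.70 in WT and from -0.50 to -0.29 in cKO, and only the Cd5 to Cd6 ratios overlap between the genotypes.

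Levels can be compared between genes only per length. Per kb of the longest coding transcript in GENCODE M21 (5082 bases for Themis, 2989 for Cd5, 3032 for Cd6 and 2952 for Sla), WT libraries held 1202 ± 18.2 scaled counts per kb for Sla, 1067 ± 82.3 for Themis, 1003 ± 85.8 for Cd6 and 417 ± 49.3 for Cd5 (SD, n = 3). Themis and Cd6 overlapped in this order (977 to 1138 against 924 to 1094), and the other neighbours did not. In cKO the order was Sla at 498 ± 28.9, Cd6 at 306 ± 18.6, Themis at 224 ± 27.8 and Cd5 at 137 ± 14.8, with no overlap between neighbours. Cd5 was thus the lowest per length in both genotypes, and Themis went from the range of Cd6 to below it. The isoforms in these cells were not resolved. Another transcript length would move a gene's level in both genotypes alike only if both make the same transcripts. For Themis that is not known, since the deleted exon is not named.

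Genes that overlap or adjoin the 4 genes were looked up in the annotation. Sla lies inside the gene for thyroglobulin, Tg, which is on the opposite strand, and the exons of the 2 genes share 0 bases in GENCODE. Tg was in the table with 30, 29 and 35 counts in WT replicates 1 to 3 and 6, 3 and 16 in cKO replicates 1 to 3, far fewer per kb than Sla in WT (3.70 against 1202 scaled counts). Its log2 fold change was -1.89 ± 0.46 (standard error; edgeR, adjusted p = 0.00263). Without cKO replicate 3 it was -2.76, a fold change larger by over 1.5 times, and with the table-centred scalings it lost its call (adjusted p of 0.298 to 0.413, against at most 0.0108 under the other alternatives). Whether the authors' counting used strand is not stated in the labels or headers used here, so low Tg counts and Sla reads from introns cannot be told apart. Slc15a3, a lysosomal peptide transporter gene, starts 12.5 kb from Cd6 on the plus strand. It was lower too, with 103 ± 18.8 scaled counts in WT and 19.7 ± 3.95 in cKO (SD, n = 3 each; log2 fold change -2.38, adjusted p = 1.03e-05, edgeR), and stayed called under the table-centred scalings. No other adjoining gene was in the table.

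**Figure D4:**
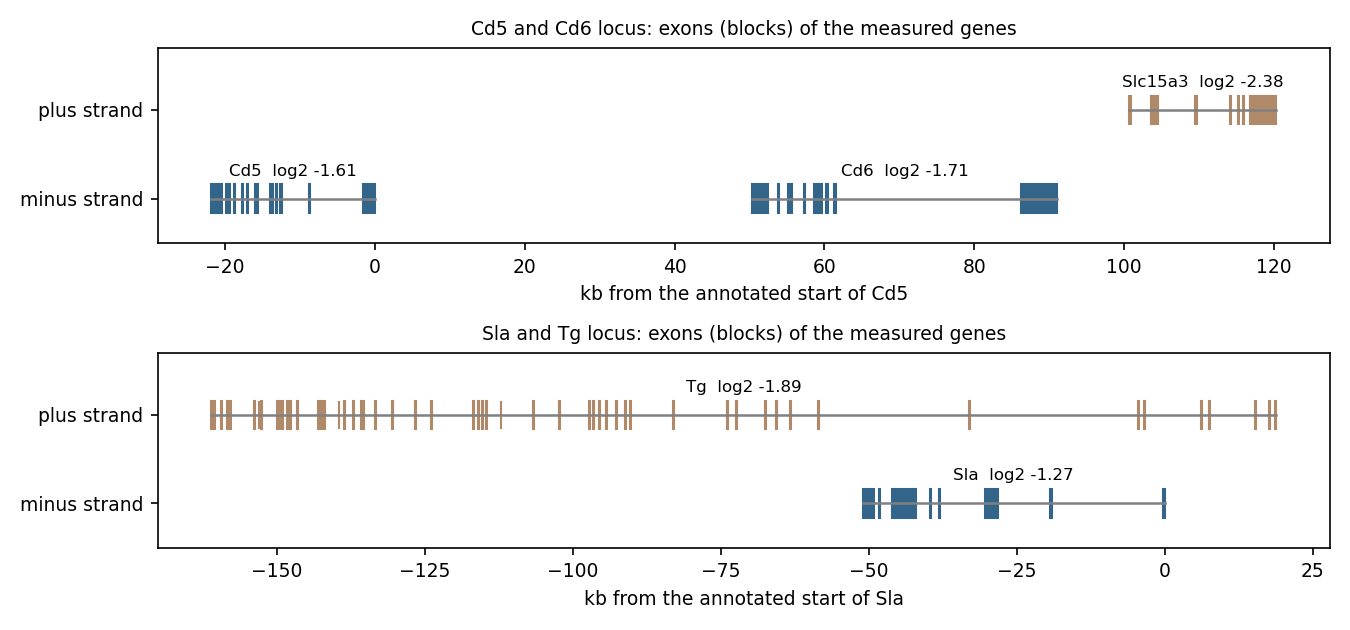
Annotated exons (blocks) of the measured genes around Cd5 and Cd6 (upper map) and Sla (lower map), with distance in kb from the annotated start of Cd5 or of Sla, strand on the vertical axis and the log2 fold change of cKO over WT beside each name. Cd5 at -1.61 and Cd6 at -1.71 lie side by side on the minus strand, and Sla at -1.27 lies within Tg.

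The pathway around the 4 genes was followed with 6 lists. Of 25 genes of proximal TCR signalling, including the CD3 chains, Lck, Zap70, Lat and Grb2, 0 were in the table, and they were not analysed here. Of the 11 genes of the Themis family and its binding partners only Themis itself was in the table. Of 11 scavenger receptor cysteine-rich proteins and Cd6 ligands it held only Cd5 and Cd6, and of 13 listed T-cell adaptors only Sla.

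Inhibitors and attenuators of TCR signalling went both ways. The table held 7 of the 30 listed, of which 5 were called lower and 2 higher, with a median log2 fold change of -1.33 against -1.34 over all tested genes. The shares in the background were 75.8% lower and 24.2% higher. Besides Cd5, Cd6 and Sla, the lower genes were Tnfaip3 (A20, an enzyme that restrains NF-kB) and Spry1 (an inhibitor of Ras and MAP kinase signalling). Tnfaip3 fell from 1257 ± 36.3 to 499 ± 29.7 scaled counts (SD, n = 3 each; log2 fold change -1.33, edgeR, adjusted p = 1.40e-06), but with the table-centred scalings it was not called (adjusted p of 0.765 to 0.787, against at most 0.000102 under the other alternatives). Spry1 fell from 133 ± 34.5 to 32.6 ± 6.87 (log2 fold change -2.03) and stayed called in all alternatives run.

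The 2 higher genes encode membrane adaptors. Pag1 anchors the kinase Csk, which holds Lck and Fyn inactive, and had 1711, 1744 and 1117 scaled counts in WT replicates 1 to 3 and 3546, 3627 and 4353 in cKO replicates 1 to 3. The groups did not overlap, and the WT library of replicate 3 was lower than the other two. The log2 fold change of Pag1 was 1.33 ± 0.17 (standard error; edgeR, adjusted p = 3.44e-05). Sit1, a TCR-associated adaptor, rose from 376 ± 55.1 to 811 ± 42.1 scaled counts (SD, n = 3 each; log2 fold change 1.11, edgeR, adjusted p = 3.48e-05). Both stayed higher and called in all alternatives run. The authors' deposited table gives smaller log2 values, 0.76 for Pag1 with a q-value of 0.170 and 0.68 for Sit1 with 0.0291, so Pag1 did not pass 0.05 there. Pag1, Sit1 and Spry1 fall outside the rule for named genes and were chosen after their values were seen.

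Of 10 transcripts listed as readouts of TCR signal strength, all 10 were in the table. All were called lower (75.8% in the background), with a median log2 fold change of -2.31. Those with the smallest p were Cd69 at -1.94, the orphan receptor genes Nr4a2 at -3.48 and Nr4a3 at -3.05, and the transcription factor gene Irf4 at -2.36. The log2 fold changes of Cd5 (-1.61) and Cd6 (-1.71) lie between those of Cd69 and of Egr1 at -1.52. That of Sla (-1.27) lies between Tnfrsf9 at -1.42 and Myc at -1.07. Egr1 and Tnfrsf9 fall outside the rule for named genes and were chosen after their values were seen. Myc turned sign under the table-centred scalings, and Egr1 and Tnfrsf9 were no longer called (adjusted p of 0.132 to 0.339, against at most 0.000134 under the other alternatives). The authors' deposited log2 value for Tnfrsf9 was -0.97 with a q-value of 0.206, so it did not pass 0.05 there. The readouts were listed with earlier results of these data known, so their count is no independent evidence. What lowered these transcripts was not tested.

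**Figure D5:**
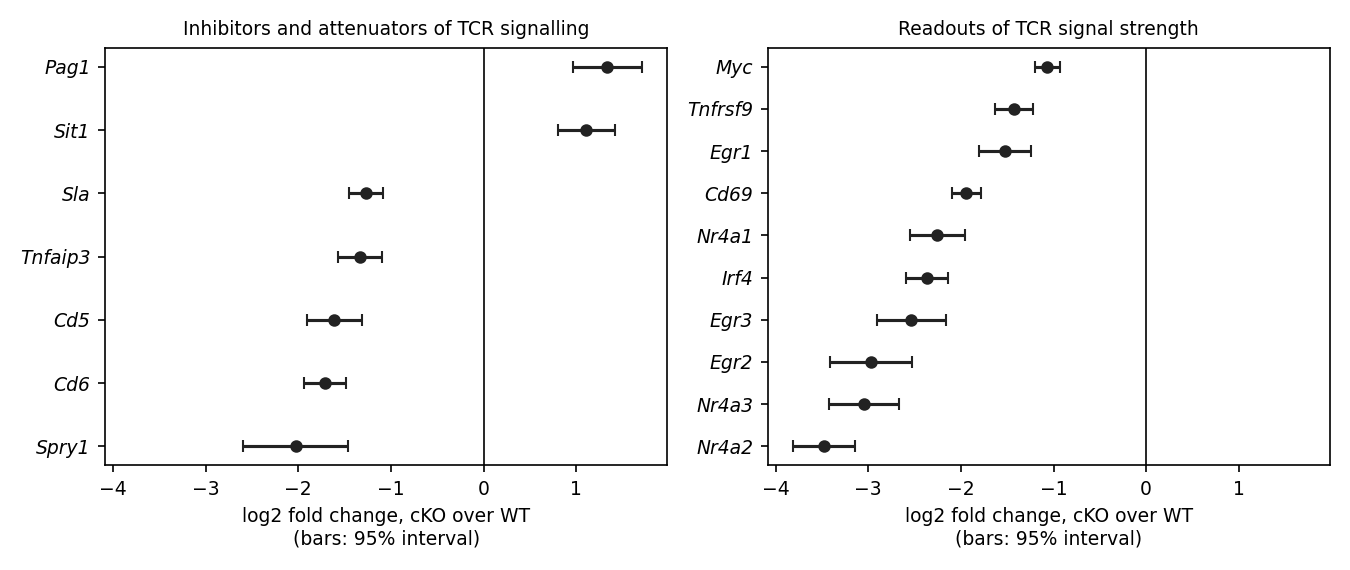
Log2 fold change of cKO over WT (horizontal axis, bars are 95% intervals) for the list members in the table: inhibitors and attenuators of TCR signalling on the left, readouts of TCR signal strength on the right. On the left Pag1 (1.33) and Sit1 (1.11) lie above 0 and the other 5 genes below it, and on the right all 10 lie below 0.

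The genes whose counts across the 6 libraries were most like each member were ranked by Pearson's r of log2(scaled count + 1), as a description, among 431 other tested genes with a mean of at least 100 scaled counts. For Themis they were B3gnt2, Ifi203 and Bnip3l, and for Sla they were Tpi1, Ifit2 and Ndrg2 (r of 0.999 to 1.00). For Cd6 they were Sesn2, Tmem106a and Aldoa (r of 0.999), and for Cd5 they were Myc, Lag3 and Neurl3 (r of 0.996 to 0.997). The genotype step sets most of such an r, which reached 0.95 for 292 to 312 of the 431 genes, depending on the member. Among the 4 genes Sla was the closest to Themis by this r, at rank 6. Such an r does not reflect the size of a change, and the log2 ratio of Themis to Sla differed by -0.98 between the genotypes.

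Markers of other cells moved in both directions. The 8 CD8 T-cell markers looked for, among them Cd3e, Cd8a and Cd8b1, were not in the table and were not analysed here, so the labelled cell type was not checked. Of the B-cell markers, Cd79b and Ms4a1 were called higher, and some B cells carry Cd5. By the authors' deposited q-values, 0.171 for Cd79b and 0.108 for Ms4a1, neither passed 0.05. Cd79b, a signalling chain of the B-cell receptor, had 41.3, 39.3 and 45.1 scaled counts in WT replicates 1 to 3 and 67.5, 113 and 142 in cKO replicates 1 to 3, with no overlap between the groups. Ms4a1, which encodes CD20, had 19.1, 9.83 and 27.8 in WT and 16.1, 59.0 and 87.8 in cKO. The groups overlapped for Ms4a1, and its adjusted p was 0.0247 with all libraries. It was 0.0560 when WT replicate 1 was left out, 0.0677 when WT replicate 2 was, 0.0529 when cKO replicate 2 was and 0.122 when cKO replicate 3 was (edgeR; 1.70e-05 to 0.122 over all alternatives). Of 6 NK markers 4 were in the table and higher (Ncr1, Klrb1c, Tyrobp and Klra8), with sums of 290.1 to 448 in WT and 754 to 1296 in cKO. Of 5 genes listed as gamma-delta T-cell markers 2 were in the table and higher (Sox13 and Blk), with sums of 29.5 to 57.2 and 76.5 to 165. Blk was low, at 13.8, 3.93 and 7.68 in WT replicates 1 to 3 and 16.1, 39.4 and 59.5 in cKO replicates 1 to 3. Like Ms4a1, it was lowest in replicate 2 of WT and rose from replicate 1 to 3 of cKO. Which cells Sox13 and Blk came from was not tested. Among all tested genes 24.2% were called higher. Every tested gene of the table was called, so a call by itself adds nothing about these markers.

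Of 8 myeloid and dendritic markers, Itgax was higher and Mpeg1 lower, with sums of 386 to 493 scaled counts in WT and 165 to 271 in cKO. Of 4 markers of CD4 and regulatory T cells only Ikzf2 was in the table, lower at 304 to 322 in WT against 87.6 to 205 in cKO, and it turned sign under the table-centred scalings. Of 4 erythroid markers 2 near-identical beta-globin genes were too low to test, with Hbb-bs at 0 in all WT libraries and Hbb-bt at 0 in all cKO libraries. The summed level of these 2 was 1.06 to 12.5 in WT and 6.04 to 17.2 in cKO. The part of other cells in the counts of Themis, Cd5, Cd6 and Sla was not tested.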

How the data were processed

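Per the labels' protocols, total RNA was purified on columns and libraries followed the DNBSEQ-G400 workflow. The submitters' processing notes list RSEM 1.2.12, HISAT2 2.0.4, DESeq2 1.4.5, Bowtie2 2.2.5 and GRCm38.p6 without role or order. The authors deposited an estimated count per gene and library, of which 66.1% are whole, and, per the file headers, their log2 fold change, p-value and q-value of cKO over WT. Neither labels nor headers say how its genes were chosen.

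Estimated counts were rounded and divided by median-of-ratios factors computed within each genotype (0.944 to 1.04), which gives the scaled counts. Depth per library is unknown: the counts of the table sum to 946769 to 1054434 in WT and 424599 to 437430 in cKO, which are not depths. The 794 genes passing edgeR's filter (smallest count of 10) were fitted with edgeR 4.0.16 (quasi-likelihood test, genotype as the term) in R 4.3.3, with Benjamini-Hochberg adjustment over all of them and calls at 0.05, and 60 genes were left out. Each standard error is the size of the log2 fold change over the square root of F. The fit was tested on simulated data. Replicate pairs differed by more than sampling noise (chi-square over degrees of freedom, 6.10 to 18.9), and all 6 libraries were kept. Alternatives covered scaling, filter, test (DESeq2 1.42.0), pseudocount, leaving out single libraries and the replicate number as a block. Coordinates are RefSeq's on GRCm38.p6.

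The 4 genes, the 6 pathway lists and the 7 marker lists were chosen with earlier results of these data known. The rule for genes named from a list was all those in the table if 4 or fewer, otherwise the 4 with the smallest p; the text says which 5 genes were named beyond it. One B-cell marker, and the count and summed level of that list, are not reported here. Added to them were overlapping or adjoining genes and the 3 most alike in pattern, predicted genes and pseudogenes left out. Tables and plots were made in Python 3.11.15 (matplotlib 3.10.9, scipy 1.17.1, numpy 2.4.6, pandas 2.3.3).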

Additional observations from a re-analysis of the deposited data

How the results depend on the processing

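The scaling between the genotypes changed calls among the 4 genes, while Ms4a1 kept its call under each scaling and lost it when any of 4 single libraries was left out (adjusted p of 0.0529 to 0.122). Under TMM, DESeq2 size factors in edgeR and DESeq2 with its own size factors, in that order, Cd5 stood at -0.32, -0.31 and -0.31 with no call, Sla turned to 0.021, 0.028 and 0.028, and the genes called numbered 439 (226 higher, 213 lower), 435 (224 and 211) and 451 (236 and 215) in place of 794 (192 and 602). Lower calls then made up 27%, 26.8% and 25.2% of tested genes. In the same order Aldoa turned to 0.29, 0.30 and 0.30, B3gnt2 to 0.30, 0.31 and 0.31, Myc to 0.23, 0.23 and 0.23, and Ikzf2 to 0.20, 0.21 and 0.21. These scalings assume that most genes are constant, and no gene of the table has a ratio near 1. With each library left out in turn, Themis ranged from -2.32 to -2.15, Cd5 from -1.74 to -1.496, Cd6 from -1.76 to -1.62 and Sla from -1.32 to -1.22, all called, and the genes called from 798 to 810. The log2 differences of the ratios ranged from -0.79 to -0.54 for Themis to Cd5, -0.67 to -0.39 for Themis to Cd6, -1.03 to -0.92 for Themis to Sla, 0.02 to 0.20 for Cd5 to Cd6, -0.44 to -0.24 for Cd5 to Sla and -0.53 to -0.36 for Cd6 to Sla. All 6 ratios kept their direction with no pseudocount, with a pseudocount of 10, with counts not rounded and with the block. The 4 genes stayed called without scaling factors, with the empty interval centred, with no filter, with a smallest count of 50 and in DESeq2 with the main scaling. Same-numbered WT and cKO libraries showed no shared deviation (r of -0.06, -0.06 and -0.16), and differently numbered ones had r of -0.04 to 0.11. With 3 libraries per genotype this cannot show whether the numbers pair them. With the replicate number as a block the 4 genes stayed called, at -2.25 for Themis, -1.61 for Cd5, -1.71 for Cd6 and -1.27 for Sla, and 793 genes were called. Library totals over all genes were not used, which limits every fold change computed here between the genotypes. The authors' deposited log2 value had the sign of the cKO to WT count ratio for all 854 genes. It was -1.77 for Cd5, -1.19 for Sla, -0.81 for Aldoa, -0.90 for B3gnt2, -0.89 for Myc and -0.88 for Ikzf2.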
